A study of Mus musculus with 3 samples.

Results

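*Myc* and the 2100 kb of mouse chromosome 15 that hold its promoter and its distal enhancers were described from the ATAC library of 1 preparation of bone marrow long-term hematopoietic stem cells (LT-HSCs). Fragments were counted in 1-kb bins of chr15:61900001-64000000 (mm10), in barcodes called as cells with over 3000 fragments in peaks, and 3108 of 3757 called cells passed. The cells were wild-type, taken from female C57BL/6 mice (C57BL/6J in the paper) of 8 weeks and sorted as LSK CD150+ CD48− CD34− cells after enrichment for c-Kit. There was no replicate, and the labels do not give the number of mice. ATAC marks open chromatin, because a transposase inserts sequencing adapters where DNA is not packed away. RNA and antibody tags were read from the same cells by DOGMA-seq, so the series has 3 libraries, and the antibody library was not used here.

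*Myc* encodes a transcription factor that pairs with MAX and drives ribosome production, metabolism and cell division. In blood cells, a cluster of enhancers far downstream of the gene, beyond the noncoding gene *Pvt1*, is known to be needed for *Myc* expression in hematopoietic stem and progenitor cells. HSCs rest for most of the time, and the level of MYC is known to affect their balance between self-renewal and differentiation.

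Passing cells had from 3977 to 194395 fragments, with a median of 11457. Of these, from 3003 to 78535 lay in peaks, with a median of 8039. Every passing barcode also had RNA, with a median of 3860.5 UMIs and a lowest value of 234. A cell counted as open at a site when at least 1 fragment had its midpoint there. All intervals in brackets are exact 95% intervals (Clopper-Pearson for shares, Poisson for counts of cells) and cover counting error only. Shares at different sites come from the same cells, so overlap of their intervals is no test of a difference.

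The promoter of *Myc* was open in many cells. Within 500 bp of its start at chr15:61985391, on the plus strand, 1396 of 3108 cells had a fragment, or 44.9% (43.2 to 46.7). This was above the share at 91.0% of 21670 protein-coding promoters, whose median was 7.79%. Of the cells, 28.4% had 1 fragment there, 11.2% had 2 and 5.34% had 3 or more. The start was flanked by further open bins. The bin from 61983001 to 61984000, which holds the start of the unclassified transcript Gm37947, was open in 17.7% of cells (16.4 to 19.1). The bin from 61987001 to 61988000, which holds an exon of *Myc*, was open in 15.7% (14.4 to 17.0). In all, 6 bins from 61983001 to 61989000 were open, where open means a share of at least 2% of cells.

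Across the window, 33 of 2100 bins were open, or 1.57%, and the median bin held 2 fragments. The bin nearest to the threshold from above was at 2.03%, from 62130001, and the nearest from below was at 1.898%, from 62139001. Open bins fell in groups around *Myc*, in *Pvt1*, in the distal cluster and at *Fam49b*, a gene for a regulator of the actin cytoskeleton, except for 1 bin from 63924001 in an exon of the pseudogene *Gsdmcl-ps* (2.57%). Between the end of *Pvt1* and the distal cluster, which begins at 63200001, none of 821 whole bins was open, and the highest share was 0.579%. In the first 400 kb of the cluster, none of 400 bins was open, with a highest share of 0.450%. The open bins of the distal cluster all lay between 63600001 and 63900001, in its last 300 kb.

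**Figure D1:**
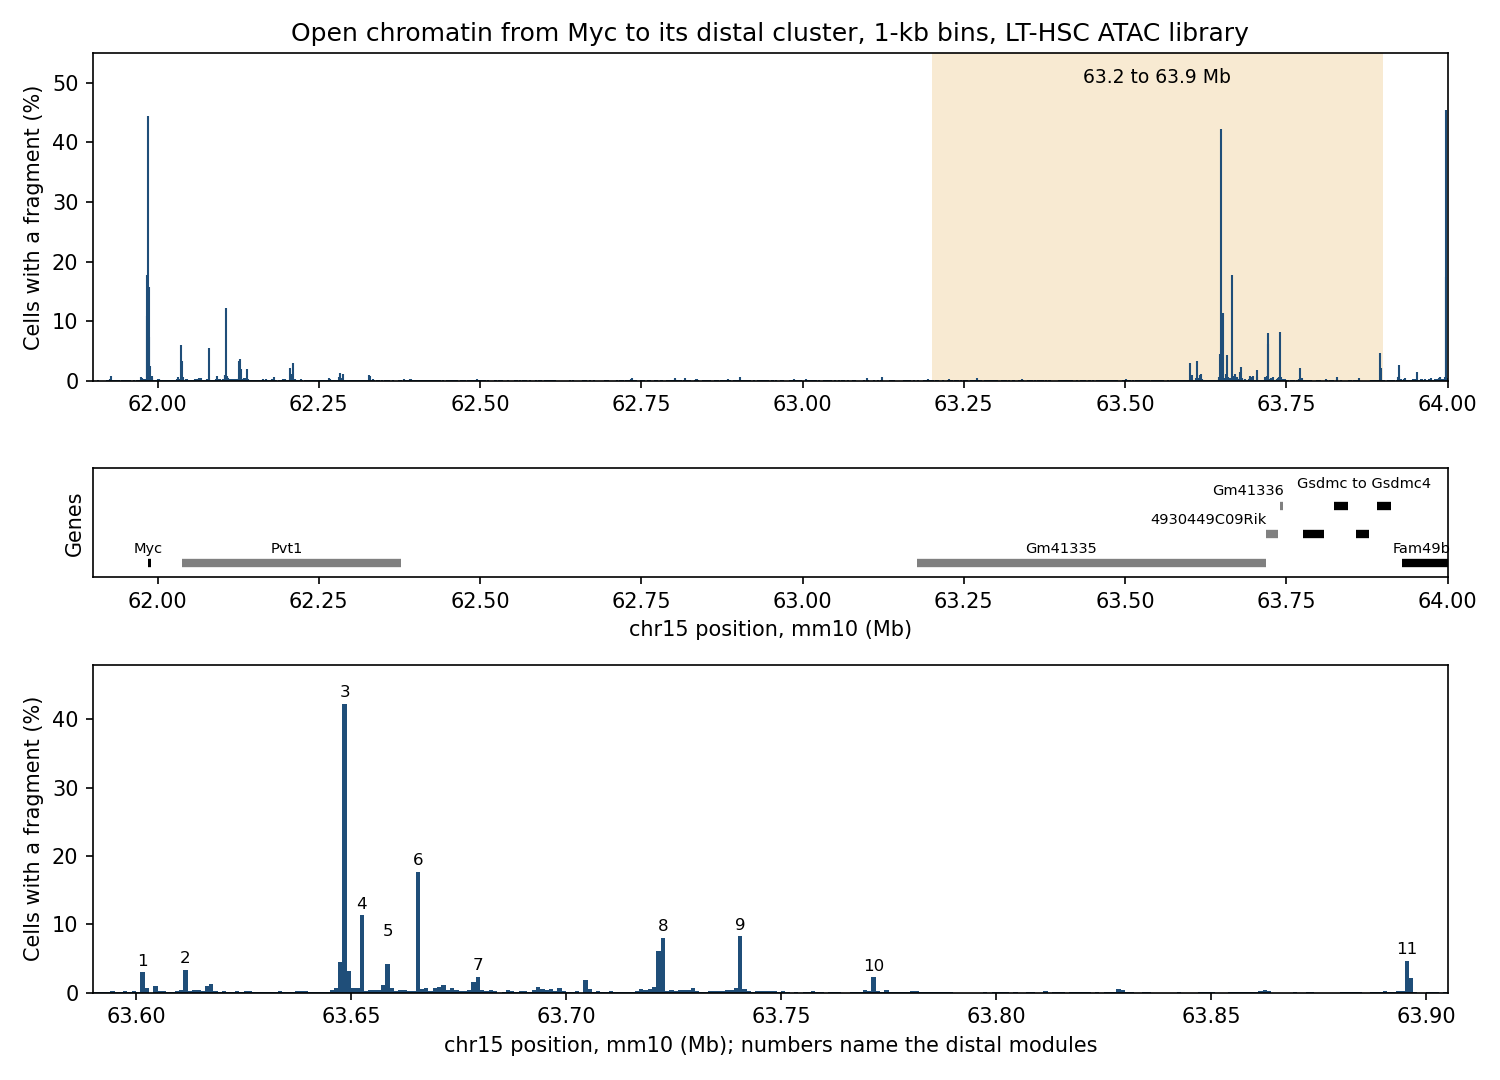
Share of cells with a fragment in each 1-kb bin (vertical axes, %) against position on chr15 (horizontal axes, Mb, mm10), for the whole window on top and the distal cluster at the bottom, with protein-coding genes in black and noncoding genes in gray between them. The bin of the *Myc* start reached 44.4%, the strongest distal bin 42.3% and the bin at *Fam49b* 45.4%.

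*Pvt1*, a long noncoding RNA gene on the plus strand at chr15:62037986-62378096, had lower shares than the *Myc* promoter. Its start bin, from 62037001, holds the start near its end and was open in 5.92% of cells (5.12 to 6.81). The next bin, from 62038001, was open in 3.28%. Within 500 bp of the start, as measured for *Myc*, 7.08% of cells had a fragment. The strongest bin of *Pvt1*, from 62106001, lay in an intron and was open in 12.2% (11.03 to 13.4). Bins from 62079001, 62127001, 62128001 and 62210001, also in introns, were open in 5.50%, 3.28%, 3.64% and 3.06%. The other open bins in introns, from 62130001 and 62206001, were at 2.03% and 2.16%. The strongest *Pvt1* bin was below the bins at 61983001 and 61987001 near the *Myc* start, and above the bins next to the start bin at 61984001 (10.9%) and 61986001 (7.30%).

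The distal cluster held 15 open bins, which formed 11 modules when open bins with at most 1 closed bin between them were joined. With fragments of at most 146 bp there were 6 modules, with each cell thinned to 5000 fragments 6, and at a threshold of 4% 7. The open bins of the window then numbered 17, 18 and 19. Modules are numbered from the *Myc* side. Together they held 4925 fragments, which was 37.0% (36.2 to 37.9) of the fragments in all open bins of the window. With a fragment in any bin of a module counted, at least 1 module was open in 72.3% of cells (70.7 to 73.8). Exactly 1 module was open in 39.3% of cells, 2 in 23.1%, 3 in 7.53%, 4 in 2.16% and 5 in 0.257%. More than 5 open modules were seen in no cell. From here on, the share of a module is that of its strongest bin, while its fragments are those of all its bins. Modules 3, 8 and 11 have more than 1 bin, and with a fragment in any of them their shares would be 45.9%, 13.1% and 6.60%.

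Module 3, at chr15:63647001-63650000, stood above the others. Its middle bin, from 63648001 to 63649000, was open in 1314 cells, or 42.3% (40.5 to 44.0). This bin lies 1663 kb from the *Myc* start, in an intron of the long noncoding RNA gene Gm41335, and 16304 bp from the nearest annotated start, that of the pseudogene Gm5473. Among 2407892 bins of the genome with no annotated start within 1 kb, 90 had a higher share. Module 3 held 46.7% of the fragments of all modules, and its share of cells was close to that of the *Myc* promoter. The intervals overlapped, but both shares come from the same cells. Of these, 770 had the promoter alone and 688 had module 3 alone. Without cells marked as doublets the promoter was open in 43.8% and module 3 in 40.0%. With fragments of at most 146 bp these shares were 30.2% and 32.3%.

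Module 6, at chr15:63665001-63666000, came next with 17.7% of cells (16.4 to 19.1), and 1190 distal bins of the genome were higher. Module 4, at chr15:63652001-63653000, was open in 11.3% (10.2 to 12.5). Both lie in introns of Gm41335. The interval of module 6 lay above that of module 4, and both were below module 3. Module 9, from 63740001, covers the start of the noncoding gene Gm41336 and was open in 8.24% (7.29 to 9.26). Module 8, whose strongest bin starts at 63722001 in an intron of the noncoding gene 4930449C09Rik, was open in 7.95% (7.02 to 8.95). At these bins the intervals of modules 8 and 9 overlapped. Modules 11 and 5 followed with 4.70% (3.98 to 5.50) and 4.25% (3.57 to 5.02), and module 11 overlaps *Gsdmc4*, a gasdermin gene. The other 4 modules ranged from 2.22% at module 10 to 3.31% at module 2. In that lower part of the order, the intervals of neighbors overlapped.

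**Figure D2:**
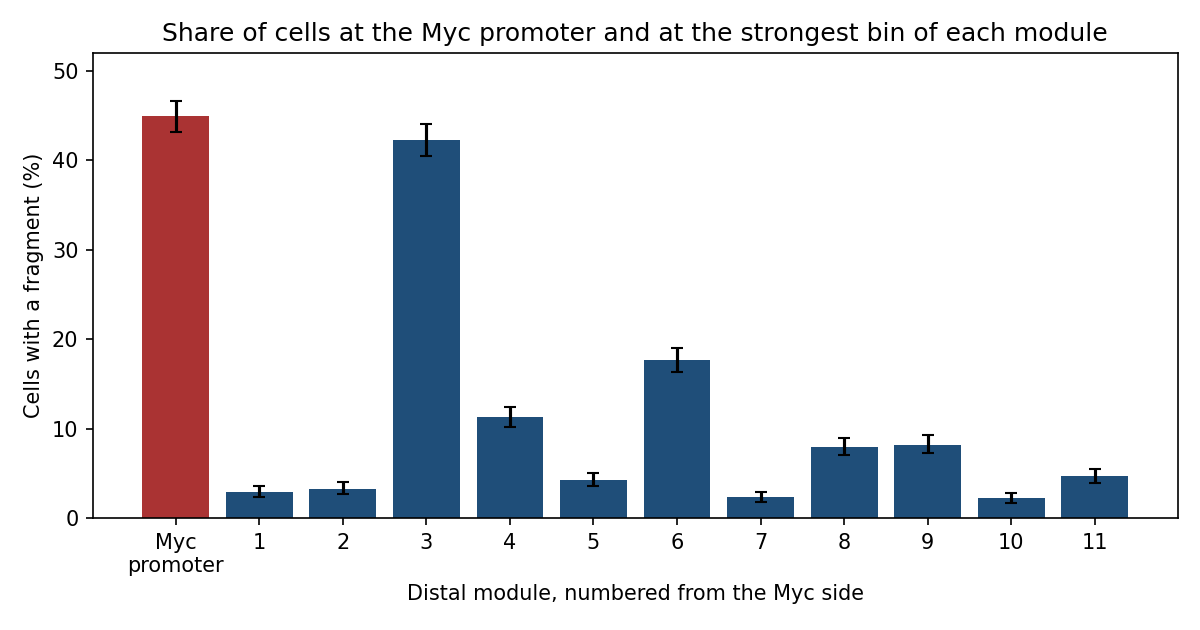
Share of cells with a fragment (bars, %, vertical axis) within 500 bp of the *Myc* start and at the strongest bin of each distal module (horizontal axis), with exact 95% binomial intervals as error bars. The *Myc* promoter at 44.9% and module 3 at 42.3% stand above module 6 at 17.7% and all other modules.

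Fragment lengths differed among modules. Fragments of at most 146 bp, too short to span a nucleosome, made up 71.1% (67.6 to 74.4) at module 6 and 64.1% (62.1 to 66.0) at module 3. They made up 33.5% (29.3 to 37.8) at module 8 and 57.4% (55.3 to 59.5) at the *Myc* promoter. Over 5704 runs of open bins without a start within 1 kb and with at least 300 fragments, the median was 53.8%, and the central 95% of runs lay from 32.9% to 73.9%. Modules 3, 6 and 8 all lay inside this range, modules 3 and 6 above the median and module 8 near the lower end.

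Fragments outside cells were a small part at the strongest sites. Barcodes not called as cells held 4.95% (4.10 to 5.92) of the fragments at the *Myc* promoter. They held 5.05% (4.17 to 6.04) at the strongest bin of module 3, against 8.40% in the whole library and 10.0% (9.61 to 10.4) in the window. Depth set the shares strongly. In the 311 cells with the fewest fragments in peaks, 29.6% were open at the *Myc* promoter and 26.7% at module 3. In the 310 cells with the most, the shares were 59.7% and 61.94%. Shares of cells therefore depend on depth, and a cell without a fragment is not shown to be closed.

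Co-opening was measured as the number of cells with 2 sites open over the number expected if each opened by itself, at a chance set by the fragments in peaks of the cell. The *Myc* promoter and module 3 were open together in 626 cells, against 624.9 expected, a ratio of 1.00 (0.925 to 1.08). Another 770 cells had the promoter alone, 688 had module 3 alone, and 1024 had neither. For module 6 the ratio with the promoter was 0.904 (0.794 to 1.03), and for module 8 it was 1.11 (0.929 to 1.31). For modules 4 and 9 it was 0.971 (0.828 to 1.13) and 0.990 (0.823 to 1.18). The median over these 5 modules, which were those with at least 5% of cells at the strongest bin, was 0.990. None of the 5 was 25% or more above 1. Of 291894 autosomal pairs of open bins 1.5 to 1.9 Mb apart, each bin with at least 5% of cells, 6.15% were. All 11 intervals of the promoter with a module held 1. The *Myc* promoter and the distal modules were thus open together about as often as depth alone gives.

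Among the 5 stronger modules, the median ratio over 10 pairs was 1.01. Modules 3 and 6 gave 1.07 (0.946 to 1.21), and modules 3 and 4, 4 kb apart, gave 1.05 (0.895 to 1.22). Of the 10 pairs, 1 was 25% or more above 1, modules 6 and 9 with 1.27 (0.980 to 1.63). Of 800720 autosomal pairs of open bins 5 to 700 kb apart, each bin with at least 5% of cells, 6.87% were. Modules 3 and 4 lie closer together than this range. The interval of modules 4 and 9 lay below 1, with 0.650 (0.402 to 0.993). Over all 55 pairs of modules, 52 intervals held 1, 2 lay above it and 1 below. The 2 above were modules 5 and 6, 7 kb apart, with 1.77 (1.29 to 2.36) from 46 cells, and modules 1 and 8 with 1.94 (1.11 to 3.15) from 16 cells. These pairs were singled out after their values were seen, and the share of such intervals over all pairs of open bins was not taken. The counts of intervals above and below 1 are therefore a description and no support for a difference. For modules 5 and 6 the ratio ran from 1.66 to 1.86 under 6 alternatives that could change it. The interval lay above 1 under 5 of them and held 1 with each cell thinned to 5000 fragments, with 1.74 (0.796 to 3.305). Without the depth term the median of the 10 pairs was 1.09.

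**Figure D3:**
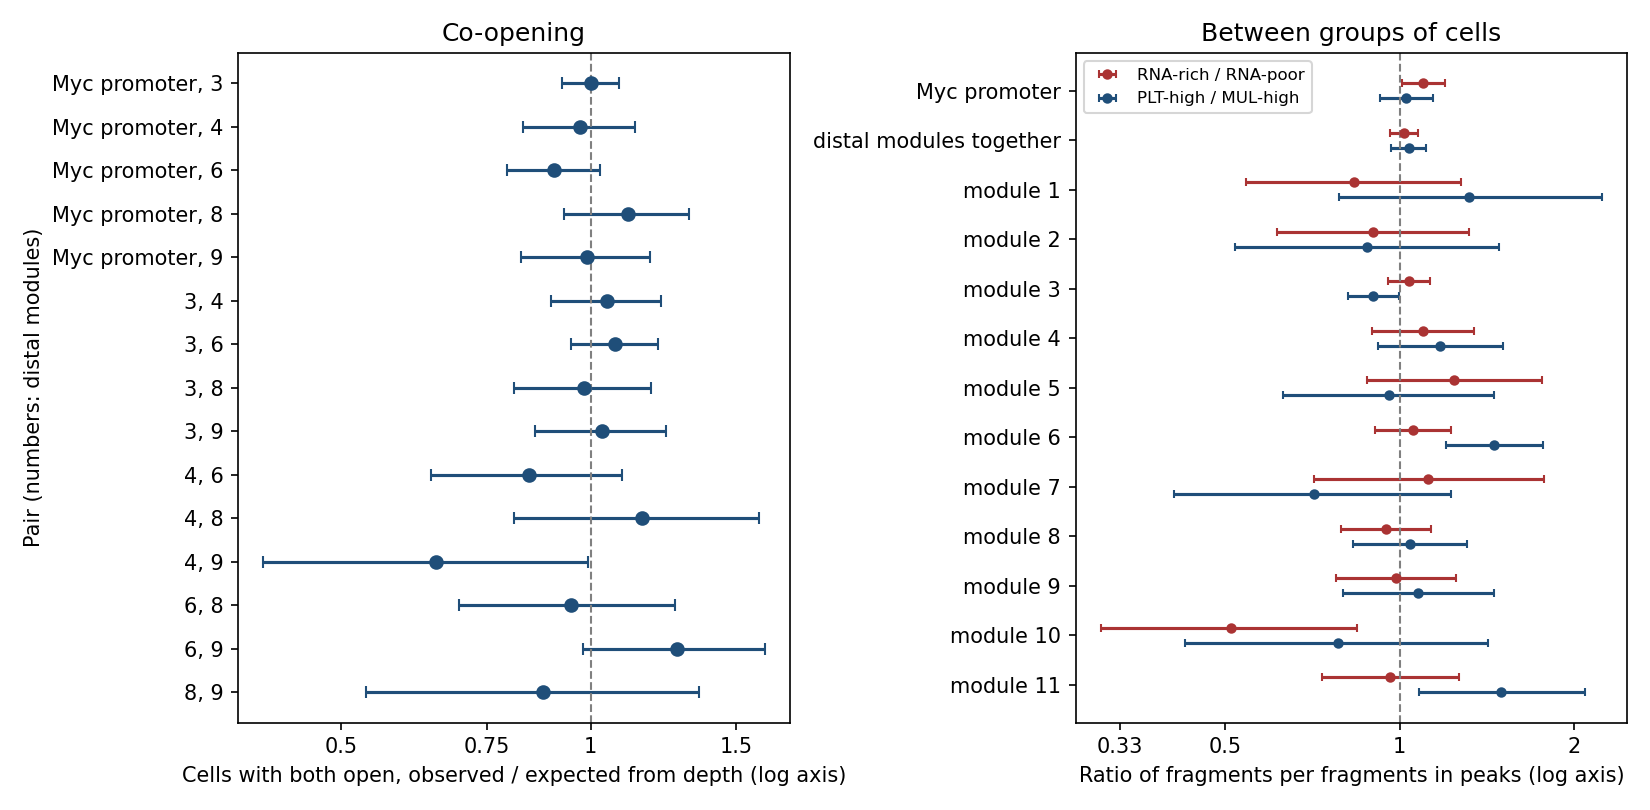
Left, cells with both sites open over those expected from depth (horizontal log axis) for each pair among the *Myc* promoter and the 5 modules with at least 5% of cells at the strongest bin. Right, ratio of fragments per fragments in peaks (horizontal log axis) between groups of cells. Points are values and bars exact 95% intervals. The pair of the *Myc* promoter and module 3 lies at 1.00.

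RNA content gave a readout outside the ATAC counts. Cells were divided at the median of RNA UMIs within 10 groups of like depth, which gave 1558 RNA-rich and 1550 RNA-poor cells with medians of 4621 and 3140.5 UMIs. The *Myc* promoter had 87.1 fragments per 1000000 in peaks in RNA-rich cells and 79.3 in RNA-poor cells, a ratio of 1.099 (1.01 to 1.20). Under the 8 alternatives that could change it, the ratio ran from 1.07 to 1.12, and under 5 of them the interval held 1. Of 10633 promoters with at least 300 fragments, 2.14% were 25% or more higher in either group, and *Myc* was not among them. Cells marked as doublets made up 11.7% of RNA-rich and 6.26% of RNA-poor cells. Without them the ratio was 1.11 (1.01 to 1.22). The distal modules together gave 1.02 (0.962 to 1.08), and 5.36% of 5427 single distal runs of open bins on other chromosomes were 25% or more higher in either group. The modules together held 4925 fragments, while a run needed 300, so the sum and a single run are not like for like. Of the 11 modules, 1 was 25% or more higher in either group, module 10, with 0.513 (0.305 to 0.843) from 26 and 48 fragments. It was open in 1.60% of RNA-rich and 2.84% of RNA-poor cells, so at a threshold of 2% it counts as a module only through the group where it is high. Its ratio (0.249 when thinned) is therefore a description and no support for a difference. Only 4 modules, not this one, had the 300 fragments asked of the runs.

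The study separates platelet-biased (PLT) from multi-lineage (MUL) HSCs, and cell labels were not used here. Cells were instead ranked by the share of fragments on genes higher in PLT clones among those on 125 clone genes of the study, none on chromosome 15. The median cell had 76 fragments on these genes. At like depth the SD of the score was 7.09 points, where counting error alone gives 5.97, or 71.0% of the variance. The 1038 highest and 1038 lowest cells within depth groups were compared, with 65.2% and 50.4% of their fragments on these genes at PLT genes, and 620 cells lay near a boundary. The groups are thus ranges of a score that is largely counting error, and not cell types, so a ratio near 1 between them says little of PLT and MUL cells. The *Myc* promoter had 84.6 and 82.4 fragments per 1000000 in peaks in PLT-high and MUL-high cells, a ratio of 1.03 (0.923 to 1.14). Of the same 10633 promoters, 4.86% were 25% or more higher in either group. The distal modules together gave 1.04 (0.967 to 1.11), where 12.2% of single distal runs were 25% or more higher in either group. Both intervals held 1, but with fragments of at most 146 bp that of the cluster did not, with 1.101 (1.01 to 1.21). Promoters and runs at the clone genes behind the score were not left out of these shares. They differ between the groups by the way the groups were made, which can raise both shares. A sum of modules and a single run are also not like for like.

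Among single modules, 8 of 11 intervals held 1, 2 lay above it and 1 below. Module 6 gave 1.46 (1.20 to 1.76), with 31.9 and 21.9 fragments per 1000000 in peaks. With each cell thinned to 5000 fragments and the score taken anew, the ratio was 0.990 (0.740 to 1.32). Of 1003 PLT-high and 1003 MUL-high cells by all fragments, 686 and 665 were in the same group after thinning. The cause of the change in ratio was not tested. With the groups kept from all fragments, an alternative chosen after seeing the data, thinned cells gave 1.42 (1.06 to 1.93). It uses the same groups and a part of the same fragments as the main value, so it is no independent check. Under the 7 alternatives other than thinning with new groups, the ratio ran from 1.42 to 1.58 and the interval lay above 1. Module 3 gave 0.901 (0.814 to 0.997) and module 11 gave 1.496 (1.08 to 2.09), from 96 and 64 fragments. Both kept their direction under the 8 alternatives that could change them, with ratios from 0.892 to 0.983 and from 1.32 to 1.72. For module 3 the interval held 1 under 5 of these. They were leaving out marked doublets (0.925), short fragments (0.942), all fragments as the denominator (0.912), and thinning with new groups (0.895) or kept ones (0.983). For module 11 it held 1 under 4, which were all called cells (1.37), leaving out marked doublets (1.32), short fragments (1.67) and thinning with new groups (1.37). For modules 3, 6 and 11, the intervals with both ends of each fragment counted are too narrow, because the ends are not independent counts. Of 11 modules, 5 were 25% or more higher in either group. As few modules had 300 fragments, this count cannot be read against 12.2%, nor the RNA count against 5.36%.

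The windows of 300 bp around the summits of modules 3, 4 and 6 are shown because these 3 modules had the highest shares of cells at their strongest bins. They are from the plus strand of GRCm38 and credited to RefSeq, and capitals mark every match to the motifs searched.
Module 3 (chr15:63648223-63648522): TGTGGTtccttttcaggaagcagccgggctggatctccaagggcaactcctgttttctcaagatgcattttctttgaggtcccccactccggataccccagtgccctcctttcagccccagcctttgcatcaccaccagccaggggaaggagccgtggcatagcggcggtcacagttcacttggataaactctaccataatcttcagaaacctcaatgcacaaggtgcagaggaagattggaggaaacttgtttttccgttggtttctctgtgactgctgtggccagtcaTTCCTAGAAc
Module 4 (chr15:63652619-63652918): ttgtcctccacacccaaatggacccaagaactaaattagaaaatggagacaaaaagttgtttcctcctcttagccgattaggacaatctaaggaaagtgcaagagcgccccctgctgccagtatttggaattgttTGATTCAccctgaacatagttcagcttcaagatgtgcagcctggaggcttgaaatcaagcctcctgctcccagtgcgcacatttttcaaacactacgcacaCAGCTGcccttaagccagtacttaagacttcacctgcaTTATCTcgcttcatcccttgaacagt
Module 6 (chr15:63665516-63665815): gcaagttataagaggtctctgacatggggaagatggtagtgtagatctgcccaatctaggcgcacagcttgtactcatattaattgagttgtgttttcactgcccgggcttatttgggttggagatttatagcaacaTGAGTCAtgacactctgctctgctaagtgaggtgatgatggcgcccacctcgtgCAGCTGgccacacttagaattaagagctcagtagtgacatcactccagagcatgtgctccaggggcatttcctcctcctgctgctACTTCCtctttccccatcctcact
Module 3 held 1 RUNX match (TGTGGT) and 1 STAT match (TTCNNNGAA). Module 4 held a match to the GATA motif, spelled AGATAA. It also held a match to the AP-1 motif, spelled TGANTCA. Its remaining match was to the E-box spelled CAGCTG, one of 3 E-boxes searched. Module 6 held matches to the ETS motif, spelled GGAAGT, to the AP-1 motif and to the same E-box. Both strands were searched. Of the windows of all 11 modules, 2 held RUNX, 2 STAT, 2 GATA, 3 AP-1, 3 ETS and 3 that E-box. Of 23723 distal windows of the genome of the same length, 30.7% held RUNX, 9.01% STAT, 15.5% GATA, 12.5% AP-1, 31.5% ETS and 20.3% the E-box. MEIS (TGACAG) was in 4 of 11 module windows and 21.0% of all, and the E-box CATCTG in 2 and 22.7%. CEBP (TTGCNNAA) and HLF (TTACNNAA) were in 1 each, against 12.5% and 11.4%. The E-box CACGTG, SP (GGGCGG) and MYB (AACNGTT) were in 0 of 11, against 5.91%, 12.2% and 5.42%. A match is a run of letters and not evidence of binding.

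The genes of the MYC network were measured at their promoters in the same way. Of 36 genes listed by role, *Myc* itself among them, 35 were above the median promoter, and 16 had a higher share than *Myc*. In the family, *Mycn* was open in 30.3% of cells (28.7 to 31.9) and *Mycl* in 11.1% (10.0 to 12.3). *Max*, the partner of MYC, was open in 30.2% (28.6 to 31.9). Among genes for proteins that compete for MAX, *Mxd1* was open in 68.9% (67.2 to 70.5), *Mxd4* in 59.7% (57.9 to 61.4) and *Mnt* in 48.2% (46.4 to 50.0), all above *Myc*. Others were below it, such as *Mga* at 44.3% (42.6 to 46.1), *Mxi1* at 33.3% and *Mxd3* at 20.7%. The intervals of *Mnt* and *Mga* overlapped that of *Myc*, which does not show that the shares are equal. The median over 9 antagonists and genes of the MLX branch was 41.5%. *Fbxw7*, whose product marks MYC for degradation, was open in 15.7% (14.4 to 17.0), and *Usp36*, for a deubiquitinase, in 72.6% (70.9 to 74.1). Of 10 targets, *Ncl*, for the ribosome factor nucleolin, had the highest share at 68.0% (66.3 to 69.7). *Tert*, for the catalytic subunit of telomerase, had the lowest at 5.53% (4.76 to 6.40), and it was the network gene below the median. An open promoter is not a level of RNA, and RNA per gene was not used here.

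Among 2302 other genes with promoter shares at most 25% above that of *Myc* or below it by the same factor, the most similar profiles over 21 bins around the start were those of *Patz1*, *Mllt3*, *Kpna1*, *Dgkz* and *Ago2*. Pearson r ran from 0.966 to 0.958 over 21 bins, against a median of 0.920 over all of these genes, so high values were common.

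Marker promoters gave only a weak check of the sort. Among HSC genes, *Hlf* was open in 39.4% of cells, *Kit* in 25.5% and *Mecom* in 18.8%, but *Slamf1* in 3.02% and *Ly6a* in 0.997%. Of the 9 HSC genes, 4 were above the median promoter. Their median share was 7.43%, against 7.79% over all promoters, so as a set they were not more open than promoters at large. None of 4 T cell, 5 myeloid and 3 stromal or endothelial genes was above the median promoter. *Pax5* among 4 B cell genes (18.8%), *Epor* among 4 erythroid genes (13.6%) and *Flt3* among 3 genes outside the gate (19.9%) were above it. Of 3 megakaryocyte genes, *Itga2b* (23.6%) and *Pf4* (20.01%) were above it. Of the genes whose proteins were used to exclude cells, *Cd48* was open in 1.42% and *Cd34* in 5.98%, which is above *Slamf1* and *Ly6a*.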

How the data were processed

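Reads were processed by the authors in Cell Ranger ARC (version 2.0.2, mm10, per the file headers), who deposited counts: unique fragments per barcode, and fragments in peaks and RNA UMIs per barcode. No deposited value was normalized, and levels were scaled here to fragments in peaks. Fragment midpoints were assigned to bins, and no fragment ended beyond a GRCm38 chromosome. Starts came from GENCODE vM21, with the start of most fragments taken per gene, for *Myc* as for all. PLT and MUL genes and their direction came from the list of the study for HSC clones, whose profiles the paper takes from earlier work. Doublets were kept, and 279 passing cells (8.98%) were marked where sites had more than 2 fragments, for an alternative. With 1 library, no test was made. Members and lists were chosen with earlier results of these data known. Named genes were *Myc*, its neighbors in the window, modules, the network, markers and the 5 most similar genes. Steps were tested on simulated data. Python 3.11.15, numpy 2.4.6, scipy 1.17.1 and pandas 2.3.3 were used.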

Additional observations from a re-analysis of the deposited data

How the results depend on the processing

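No analysis paired by replicate was possible, because each library is the only one of its kind. RNA and ATAC were joined by cell. Of 108 values under alternatives, 14 could not change, because the filter on quality kept all 3108 cells and the threshold of a bin cannot alter the strongest module. Of the other 94, 75 stayed within 1.5 times (counts) or the main interval, including all co-opening and group ratios of the promoter and cluster and the network count. For a co-opening median, the main interval was that of its middle pair or pairs, and not of the median. Staying within it is therefore a weak check. Without the depth term the median was 1.06 for the promoter with modules and 1.09 among modules. Shares of cells followed depth and window size. The *Myc* promoter share was 38.5% in all called cells, 46.8% above 5000 fragments in peaks, 30.2% with fragments of at most 146 bp, 25.4% thinned to 5000 fragments and 56.3% from 2000 bp before the start. The strongest module was open in 36.4%, 44.2%, 32.3% and 22.97% of cells under the first 4 of these, in 40.0% without marked doublets and in 35.8% with 500-bp bins. Short fragments gave 17 open bins, 6 modules and a distal share of 35.9%. Thinning gave 18, 6 and 35.2%, and a threshold of 4% gave 19 open bins and 7 modules. Alternatives for single modules and 1 pair were chosen after seeing the data. Module 6 in PLT-high over MUL-high cells fell to 0.990 when thinned, but gave 1.42 with the groups kept, which is no independent check. The cause was not tested. The interval of the *Myc* promoter in RNA-rich over RNA-poor cells held 1 in all called cells (1.07, from 0.986), above 5000 fragments in peaks (1.09, from 0.997), with the wider promoter (1.07, from 0.996), per all fragments (1.08, from 0.991) and thinned (1.096, from 0.959).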
